A study of Rattus norvegicus with 58 samples.

Results

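Triceps brachii of 9 sarcopenic male Wistar rats of 24 months was examined for how unevenly a forelimb muscle that keeps its mass responds to age. The 9 libraries, of 58 in the series, come from rats 41 to 47, 49 and 50, and each rat also gave a gastrocnemius library. Adult rats of 8 months (10 animals) and early-sarcopenic rats of 18 months (10 animals) gave both muscles too, and the age groups were named after the decline of hindlimb muscles, not of the triceps. The labels name no altered gene and no treatment in any group, and give only age and muscle as what separates the groups. Each age is a different set of rats, so other differences between these sets cannot be told apart from age. The measure of response was the gene Cdkn1a (ENSRNOG00000000521), and the 11426 genes with a mean of at least 50 reads in the 9 libraries, of 32545 in the table, were ranked by the Spearman correlation (rho) of their level with that of Cdkn1a. At a rho of at least 0.8 stood 79 genes, called top-ranked below, and at a rho of -0.8 or less stood 73, called bottom-ranked. Both groups of genes were thus chosen by their correlation with Cdkn1a over the 9 libraries, so these values are given as a description and carry no test. Over only 9 libraries a share of unrelated genes also reaches such limits. The counts of 79 and 73 among 11426 genes were not tested against that share, so membership alone does not show a relation with Cdkn1a.

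Cdkn1a encodes p21, an inhibitor of cyclin-dependent kinases that halts the cell cycle and is a classic target of the transcription factor p53. In skeletal muscle p21 also accumulates after loss of nerve input and during disuse. Denervated fibres are known to switch on further genes, among them Runx1, a transcription factor, Ankrd1, a stress-responsive ankyrin protein of the sarcomere and nucleus, and the subunits of the acetylcholine receptor outside the junction.

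The stretches below show where 2 motifs lie before the start of genes whose levels are described next, since Cdkn1a and the p53 genes share one known regulator and the junction genes another. They are RefSeq sequences on the rat build GRCr8, 60 bases each, read 5′ to 3′ on the strand of the gene, and the build differs from the Rnor_6.0 of the counts, so they serve for the letters only. Capitals mark the match to the p53 response element decamer in the first 3 and the E-box CAGCTG, a site of myogenic transcription factors, in the others.
Cdkn1a, chr20:7150706-7150765, plus strand: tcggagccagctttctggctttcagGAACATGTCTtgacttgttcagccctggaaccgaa
Gadd45a, chr4:97486813-97486872, minus strand: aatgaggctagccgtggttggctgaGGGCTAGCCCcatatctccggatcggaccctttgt
Sesn1, chr20:46948522-46948581, plus strand: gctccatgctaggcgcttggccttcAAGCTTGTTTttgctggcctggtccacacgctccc
Chrna1, chr3:78877396-78877455, minus strand: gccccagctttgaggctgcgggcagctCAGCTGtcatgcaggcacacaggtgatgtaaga
Musk, chr5:77853630-77853689, plus strand: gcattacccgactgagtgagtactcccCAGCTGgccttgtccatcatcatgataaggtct
Both motifs read the same on either strand, and they overlap in none of these stretches. In the 250 bases before the start, the p53 decamer was found in 3 of 10 windows of Cdkn1a and the p53 list (Cdkn1a, Gadd45a and Sesn1), in 1 of 4 of junction genes (Chrna1), in 0 of 12 of top-ranked genes with a symbol, and in 6.64% of the 33469 promoters of the reference. CAGCTG was found in the windows of 4 of 4 junction genes and 3 of 12 top-ranked genes (Cables2, Nup93 and Tubb6), against 12.0% of all promoters. A match is a string of letters and not evidence of binding.

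Cdkn1a was spread widely among the triceps of 24-month rats. Levels are TMM-scaled CPM, that is, reads of a gene as a share of the reads of its library, and Cdkn1a stood at 29.6 CPM in rat 45, 33.6 in rat 43, 62.0 in rat 41, 81.0 in rat 49, 106 in rat 42, 108 in rat 44, 128 in rat 47, 139 in rat 50 and 185 in rat 46. The lowest 4 libraries lay within the range of 8-month triceps, where all rats but 1 were under 35 CPM, and the highest was level with the lowest 24-month gastrocnemius. Between 451 and 5860 reads stood behind these values, so counting error was small beside the 6.24-fold range. The SD of log2(CPM + 0.5) over the 9 rats was 0.905, against 0.503 in 18-month and 0.732 in 8-month triceps and 0.545, 0.773 and 0.639 in gastrocnemius of 8, 18 and 24 months. On the linear scale the coefficient of variation was 52.5%, below the 76.6% of 8-month triceps, which holds 1 high library, and close to the 53.6% of 18-month gastrocnemius. The differences in spread between groups were not tested.

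The same gene was lower at younger ages in triceps, and at 18 and 24 months it was far higher in the hindlimb. In triceps it ranged from 18.2 to 102.7 CPM at 8 months (median 24.4) and from 25.9 to 77.2 CPM at 18 months (median 43.6). In gastrocnemius it ranged from 12.8 to 37.9 CPM at 8 months (median 25.1), from 109 to 432 at 18 months (median 181) and from 180 to 798 at 24 months (median 628). The ranges of the 3 triceps groups overlapped, as did 8-month gastrocnemius with all of them. From 8 to 24 months log2 Cdkn1a rose by 1.56 in triceps (SE 0.312, adjusted p = 0.00361, edgeR quasi-likelihood test over 14947 genes, n = 10 and 9 rats), and in gastrocnemius by 4.45 (SE 0.347, adjusted p = 3.085e-14 in the same fit). At 8 months a single library, from rat 9, stood at 102.7 CPM while the next highest was at 34.8.

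**Figure D1:**
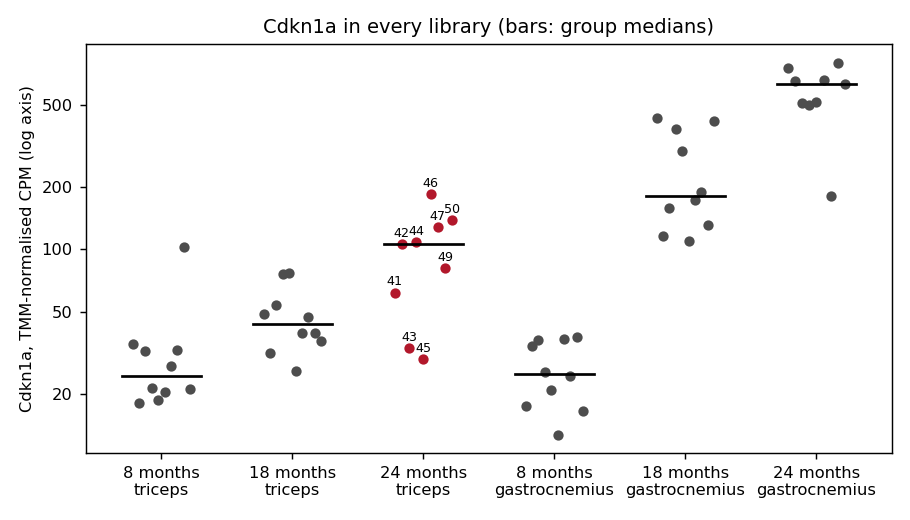
Cdkn1a in TMM-normalised CPM (log axis) in every library of the 6 groups of muscle and age, with a point for each rat and a bar at the group median. The 9 libraries of 24-month triceps spread from 29.6 to 185 CPM, and rat 9 in 8-month triceps and rat 47 in 24-month gastrocnemius lie apart from their groups.

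Read totals of the 9 libraries ran from 13707850 in rat 43 to 41077568 in rat 50, and the chi-square per degree of freedom between pairs of them was 24.9 to 403, so the spread between rats far exceeded counting error. The read total had a rank correlation with Cdkn1a (rho 0.7, exact permutation p = 0.0433, adjusted p = 0.519 over 12 relations, Pearson r 0.676 with exact permutation p = 0.0440 and adjusted p = 0.527). The relation thus failed the adjustment. Without rats 46 and 50, the libraries with the most reads, r was 0.512 and rho 0.393 (exact permutation p = 0.245 and 0.396). Leaving them out also narrows the range of read totals, and whether the relation rests on those rats was not tested. The libraries were of skeletal muscle by its markers, all 19 of which passed the filter. Their summed level ran from 17830 CPM in rat 42 to 44830 in rat 47, while 7 lymphocyte markers summed to between 5.17 and 13.2 CPM. In rat 42 the fast-fibre actinin gene Actn3 was at 3198 CPM, against 6778 to 12950 in the others, and 17 genes of glycolysis and glycogen summed to 17410 CPM, against 30250 to 58340. Such sums are shares of the RNA, in which fewer cells of a type and less RNA per cell cannot be told apart. The part of depth and of cell makeup in the ranking was not tested beyond these values and the fits that follow.

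The top-ranked genes with a symbol were led by Slain2, Mib2 and Cdc25a. Symbols were at hand only for genes that the study listed as changed with age in these muscles, so 15 of the 79 top-ranked and 3 of the 73 bottom-ranked genes could be named. Slain2 (ENSRNOG00000002271), which promotes microtubule growth, had a rho of 0.983 and stood at 139 CPM in rat 45, 163 in rat 43, 173 in rat 41, 185 in rat 49, 190 in rat 42, 191 in rat 44, 195 in rat 50, 206 in rat 47 and 292 in rat 46. Its order among the rats differed from that of Cdkn1a only in rats 47 and 50. Mib2, a ubiquitin ligase that acts on Notch ligands, followed at 0.95 over a narrow range of 22.2 to 30.1 CPM (median 25.9), and Cdc25a, the phosphatase that activates cyclin-dependent kinases, at 0.9 over 8.19 to 12.8 CPM (median 9.56). Of the unnamed genes, ENSRNOG00000029194 had a rho of 0.983, ENSRNOG00000000421 of 0.933 and ENSRNOG00000004711 of 0.9.

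Runx1 and Tubb6 combined a high rank with a wide range. Runx1 (ENSRNOG00000001704), the denervation-responsive transcription factor, had a rho of 0.817 and stood at 3.35 CPM in rat 43, 3.70 in rat 45, 5.70 in rat 49, 6.74 in rat 41, 8.95 in rat 47, 10.2 in rat 50, 11.2 in rat 44, 16.3 in rat 42 and 31.7 in rat 46, a 9.47-fold range. Tubb6 (ENSRNOG00000018371), a beta-tubulin that is low in resting adult muscle, had the same rho and a 7.91-fold range, from 16.0 CPM in rat 43 and 16.9 in rat 45 over a median of 41.0 to 58.2 in rat 44 and 127 in rat 46. For both genes rats 43 and 45 were lowest and rat 46 was highest, as for Cdkn1a.

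Other named genes of this group moved over smaller ranges. Fbxo30, a muscle ubiquitin ligase that denervation induces, had a rho of 0.817 and ran from 14.6 CPM in rat 45 to 30.5 in rat 47, with rat 46 at 21.9. Dysf, which encodes the membrane repair protein dysferlin, had a rho of 0.833 (146 to 325 CPM, median 197), and Creld1, an endoplasmic reticulum protein, one of 0.85 (63.1 to 116 CPM). Zbtb47, a zinc finger gene, stood at 0.85, Cables2 at 0.833, and Sfmbt1, a chromatin protein, and Nup93, of the nuclear pore, at 0.817, each with a range of at most 2.20-fold. The remaining 3 named genes, Reps1, Usp10 and Clpb, stood exactly at the limit of 0.8.

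Rank and range were separate properties of the list. The median fold between the highest and the lowest library was 1.71 among the 79 top-ranked, 1.83 among the 73 bottom-ranked and 1.73 among all 11426 ranked genes. A range over 4-fold was found in 5 of the 79 (6.33%), against 6.03% of all ranked genes. One of these 5, ENSRNOG00000015049, chosen here after its values were seen, stood at 41.6 CPM in rat 46 and between 0.149 and 3.62 CPM in the others. Only a few reads stood behind its lowest value, so no fold is given. Inside the upper limit 15 genes had a rho of 0.8 and just outside it 18 had 0.783, and at the lower limit 15 stood at -0.8 and 16 at -0.783.

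**Figure D2:**
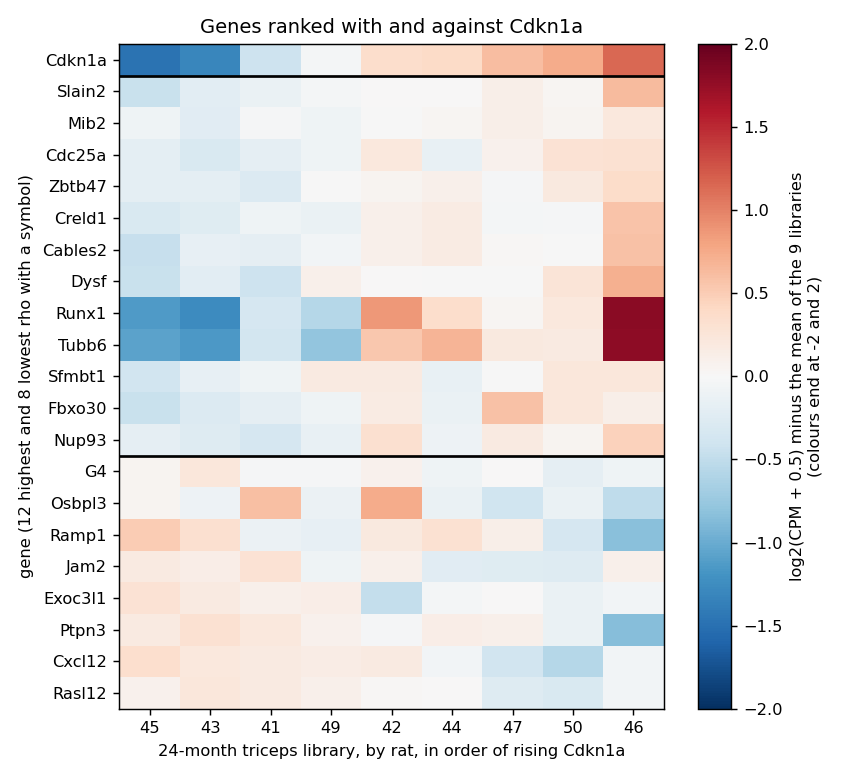
Levels of Cdkn1a and of genes with a symbol of highest and lowest rho (rows) in the 9 libraries of 24-month triceps (columns, ordered by Cdkn1a). Values are log2(CPM + 0.5) minus the mean of the gene over the 9 libraries, with colours ending at -2 and 2. The top-ranked Reps1, Usp10 and Clpb are not shown. Of the genes of lowest rho, Cxcl12, Rasl12 and Ptpn3 are bottom-ranked, while Exoc3l1, Jam2, Ramp1, Osbpl3 and G4 missed that limit. Runx1 and Tubb6 show the strongest colours, with rat 46 highest, while most other rows move little.

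Among the genes ranked against Cdkn1a were Cxcl12, Rasl12 and Ptpn3. Cxcl12 (ENSRNOG00000013589), a chemokine made by stromal and vascular cells, had a rho of -0.85 and stood at 153 CPM in rat 45, 140 in rat 43, 137 in rat 42, 136 in rat 41, 134 in rat 49, 116 in rats 44 and 46, 92.9 in rat 47 and 81.5 in rat 50. Rasl12, a Ras-like protein gene, had the same rho over 7.46 to 11.0 CPM, and Ptpn3, a tyrosine phosphatase gene, a rho of -0.817, with 135 CPM in rat 46 and 222 to 302 CPM in the others. These were the 3 bottom-ranked genes with a symbol. Beyond the limit followed Exoc3l1 (-0.783), Jam2 (-0.75), an adhesion molecule of endothelial junctions, Ramp1 (-0.733), a subunit of the CGRP receptor, Osbpl3 (-0.733) and G4 (-0.717). Without a symbol, ENSRNOG00000011705 stood at -0.967 and ENSRNOG00000009778 at -0.95.

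This side of the ranking depended on the scaling. With library totals in place of TMM factors, 51 genes passed the lower limit and 7 of them were among the 73, whereas 58 passed the upper limit and 37 were among the 79. With the rank of the read total removed from both ranks, 20 of the 79 and 34 of the 73 passed their limits. Ptpn3 kept a rho of -0.85 with library totals, while Rasl12 moved to -0.45 and Cxcl12 to -0.583. Leaving out each rat in turn, 22 of the 79 and 26 of the 73 passed the limit every time. Without rat 46, 56 genes passed the upper limit and 24 of them were among the 79.

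Known p53-responsive genes lay mostly on the side of Cdkn1a without reaching its limit. Of 15 genes in the list, 11 had a symbol and 9 were ranked, with 8 of 9 above 0 and a median rho of 0.533, against 0.0167 over all ranked genes. Gadd45a (ENSRNOG00000005615), a DNA damage and stress gene, had a rho of 0.783 and stood at 12.2 CPM in rat 49, 13.4 in rat 43, 13.8 in rat 45, 35.4 in rat 41, 36.1 in rat 44, 36.5 in rat 47, 38.5 in rat 50, 52.5 in rat 42 and 85.6 in rat 46. It lay under 14 CPM in 3 libraries and above 35 CPM in 6, and rat 49, with 81.0 CPM of Cdkn1a, was lowest here. Eda2r (ENSRNOG00000013018), a receptor of the TNF receptor family, had a rho of 0.767 and stood at 51.1 CPM in rat 46 and between 7.30 and 23.1 CPM in the others.

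The rest of the p53 list moved less. Phlda3, a repressor of Akt, had a rho of 0.617 and ran from 20.7 CPM in rat 43 and 31.9 in rat 45 to 72.6 in rat 42. Rbm38, an RNA-binding protein gene, also had 0.617, Mdm2, the ubiquitin ligase of p53 itself, 0.533 (66.9 to 109 CPM), Ninj1 0.433, Tp53inp1 0.3, Rps27l 0.1 and Sesn1, a nutrient-sensing stress protein, -0.05. The list thus ranged from near the limit to no relation. Its median with library totals was 0.383, with the read total removed 0.343, and with each rat left out between 0.357 and 0.643. Zmat3 and Tp73 were under the read filter, and Bax, Ccng1, Gdf15 and Btg2 had no symbol to match.

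Of 5 further inhibitors of the cell cycle 3 were ranked, with rho between 0.6 and 0.767. Cdkn2b (p15) had a rho of 0.767 and ran from 2.32 CPM in rat 41 to 10.8 in rat 46, with 8.22 in rat 47 and 7.06 in rat 50. Cdkn1c (p57) had 0.733, from 4.84 CPM in rat 43 to 15.3 in rat 50, with rat 46 at only 7.00, and Rb1, the retinoblastoma protein gene, had 0.6 (24.9 to 45.6 CPM), which was 0.133 with library totals and 0.330 with the read total removed. The highest rat thus differed between the inhibitors. Of 47 genes of mitosis only 9 passed the read filter, with a median rho of 0.0833, and Cdc25a was the only one beyond the limit.

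The 4 matched genes of the postsynaptic junction, all of them ranked, ranged from a rho of -0.233 to 0.7. Chrna1 (ENSRNOG00000018286), the acetylcholine receptor alpha subunit, had a rho of 0.3 and a 19.2-fold range: 1.72 CPM in rat 49, 2.62 in rat 45, 6.59 in rat 46, 8.86 in rat 43, 11.4 in rat 47, 12.6 in rat 41, 19.4 in rat 50, 23.8 in rat 44 and 33.1 in rat 42. Only rats 45 and 49 were lower than rat 46, the highest for Cdkn1a, and rat 42 was highest. Musk, the receptor kinase that organises the junction, had a rho of 0.7, with 8.60 CPM in rat 50 and 2.16 to 3.62 CPM in the others. Chrnb1 had 0.267 and Chrne, the subunit of mature junctions, -0.233.

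In Ankrd1, as in Chrna1, rats 42, 44 and 50 stood highest. Ankrd1 (ENSRNOG00000018598) had a rho of 0.7 and stood at 12.3 CPM in rat 43, 16.6 in rat 45, 20.6 in rat 41, 65.1 in rat 49, 65.6 in rat 47, 82.8 in rat 46, 115 in rat 50, 133 in rat 44 and 165 in rat 42. Of 20 genes in the denervation list 13 had a symbol and 11 were ranked, with a median rho of 0.333 and 9 of 11 above 0, and Runx1 and Fbxo30 were top-ranked. That median was 0.55 with library totals, 0.404 with the read total removed and between 0.286 and 0.667 with each rat left out, so the order of the p53 and denervation lists by median depends on the setting. The sum over the 13 genes, to which Ankrd1 gave a large part in the highest rats, was 163 CPM in rat 45, 164 in rat 41, 183 in rat 43, 214 in rat 49, 233 in rat 47, 311 in rat 46, 334 in rat 44, 345 in rat 50 and 374 in rat 42. Rats 41, 43 and 45 were therefore low on both Cdkn1a and this list. Rat 42, with the highest sum, was also the library with the lowest summed muscle markers and glycolytic genes, and the part of that difference was not tested.

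The medians of the metabolic and matrix lists were near 0 or changed sign with the setting. Oxidative phosphorylation (38 genes, all ranked) had a median rho of -0.167 with 34 below 0, which was 0.175 once the read total was removed, so its sign is not settled. Its summed level ran from 82330 CPM in rat 46 to 136700 in rat 47, and Cycs, cytochrome c, had the lowest rho of the list at -0.383. The citrate cycle and fatty acid oxidation had a median of 0, glycolysis and glycogen of 0.0667, extracellular matrix of -0.025, glucocorticoid-responsive genes of 0.05 and the amino acid stress response of 0.0833. With the read total removed these were 0.259, -0.00934, -0.263, -0.0982 and 0.0351, and with library totals -0.05, -0.2, 0.0833, 0.25 and 0.0667, in that order. Within the matrix list Tgfb2, a growth factor, stood at 0.717 (33.3 to 54.1 CPM) and Fap, a fibroblast protease, at -0.617. Antigen presentation had a median of -0.333, with 8 of 9 genes below 0, which was -0.0667 with library totals and -0.394 with the read total removed.

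Markers of endothelium and macrophages lay mostly below 0. Endothelial markers had a median rho of -0.308, with 11 of 12 below 0, and their summed level ran from 416 CPM in rat 47 to 697 in rat 46. With library totals that median was -0.1. Macrophage markers had a median of -0.3 with 6 of 7 ranked genes below 0, and summed to between 117 and 189 CPM. The summed markers themselves had a rho with Cdkn1a of -0.233 for endothelium and -0.317 for macrophages (exact permutation p = 0.552 and 0.410, adjusted p = 0.871 for both over the 12 relations, n = 9). Their Pearson r was -0.219 and -0.347 (exact permutation p = 0.561 and 0.356, adjusted p = 0.898 for both). Without rats 41 and 46, farthest in the endothelial sum, r was -0.707, and without rats 49 and 50, farthest in the macrophage sum, it was -0.876 (exact permutation p = 0.0895 and 0.00833, not adjusted). With the same rats left out, rho was -0.821 for endothelium and -0.786 for macrophages (exact permutation p = 0.0341 and 0.0480, not adjusted). Skeletal muscle markers had a median of 0.25, and those of red blood cells, Schwann cells and mast cells had 2 ranked members each, with medians of 0.125, -0.325 and 0.

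**Figure D3:**
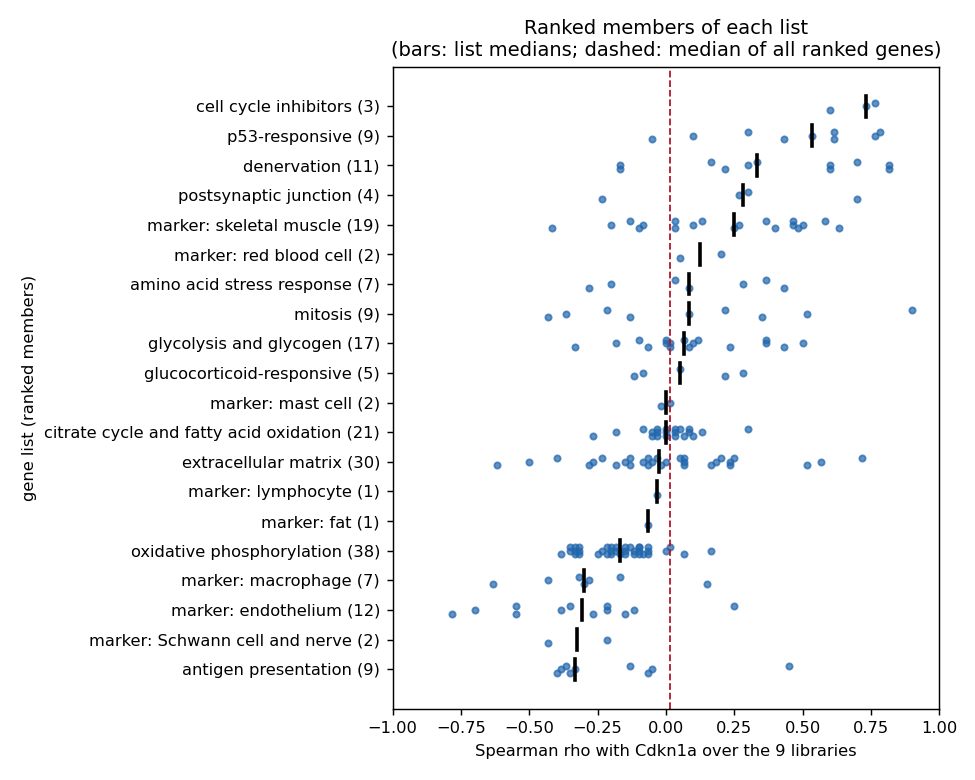
Spearman rho with Cdkn1a over the 9 libraries of 24-month triceps (horizontal axis) for each ranked member of each gene list (points, with the number of members in brackets), with a bar at the list median and a dashed line at the median of all ranked genes, 0.0167. The lists of p53-responsive genes and cell-cycle inhibitors lie to the right and those of endothelial and macrophage markers to the left, with wide overlap.

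The change of the ranked genes with age in gastrocnemius, whose libraries the ranking did not use, was tested in the fit over all genes. From 8 to 24 months 22.6% of the 14947 genes were higher and 21.6% were lower. Of the 79 top-ranked genes 22 were higher and 16 were lower, and of the 73 bottom-ranked genes 21 were higher and 7 were lower. The share of higher genes was thus alike in both sets and a little above that of all genes tested. The share of lower genes was near that of all genes tested in the top-ranked set and below it in the bottom-ranked set. Differences between these shares were not tested. Of the 11426 ranked genes, from which both sets come, 2404 were higher and 3017 were lower. Of the 12 top-ranked genes with the highest rho among those with a symbol 10 were higher and 2 were lower, a count without Reps1, Usp10 and Clpb. Of the 1814 ranked genes with a symbol 574 were higher and 1130 were lower. All of these carry a symbol because the study listed them as changed with age in these muscles, and the difference in direction was not tested. In log2 units Runx1 rose by 3.11 (SE 0.335, adjusted p = 1.462e-10), Tubb6 by 2.42 (SE 0.306), Cdc25a by 1.13 (SE 0.126) and Slain2 by 0.76 (SE 0.114), whereas Mib2 fell by 0.34 (SE 0.0770) and Zbtb47 by 0.49 (SE 0.0820).

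In triceps itself the age test uses the 9 ranked libraries and is read only as a description. Over all genes 2.08% were higher and 0.636% were lower at 24 months, and 4 of the 79 top-ranked genes were higher. With limma's voom and an estimated within-rat correlation 1 of them was higher, and without rat 46 the edgeR fit called 2. In log2 units Runx1 rose by 1.60 (SE 0.335, adjusted p = 0.0052) and Tubb6 by 1.36 (SE 0.300, adjusted p = 0.00846). Gadd45a rose by 1.58 (SE 0.324, adjusted p = 0.00426), Chrna1 by 1.56 (SE 0.437, adjusted p = 0.0388) and Cdkn1c by 0.73 (SE 0.191, adjusted p = 0.0267), all by the edgeR test named above. The log2 difference was 1.01 for Eda2r (adjusted p = 0.0943, SE 0.354), 0.77 for Cdkn2b and 0.12 for Slain2, none of which passed.

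The lists are read against the genes they were drawn from, since of the 1814 ranked genes with a symbol 574 were higher and 1130 were lower in gastrocnemius, far more than the 22.6% and 21.6% of all genes, and 49 were higher and 19 lower in triceps. That nearly all members of a list were called in gastrocnemius is therefore near this background, and no more than the direction is described. The p53 genes with a symbol numbered 9 higher and 2 lower of 11 in gastrocnemius and 1 higher in triceps. All 13 denervation genes were higher in gastrocnemius and 4 in triceps (Runx1, Krt18, Ncam1 and Kcnn3). Of 4 cell-cycle inhibitors 4 were higher in gastrocnemius and 1 in triceps, as was the case for the 4 junction genes. The 38 genes of oxidative phosphorylation were all lower in gastrocnemius, and in triceps 0 passed the test. In triceps 5 of 9 genes of antigen presentation were higher, the largest share of any list used here with more than 4 members tested. These lists were matched through a table the study made from these samples, which is not independent evidence of their direction.

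Whether the same genes go with Cdkn1a in other rats or the other muscle was tested as a slope on log2 Cdkn1a within each group (edgeR quasi-likelihood test, adjusted over all genes). In 24-month gastrocnemius 0.154% of 14946 genes were called (23 genes, 16 with a positive slope), in 8-month triceps 0.0201% (3 genes) and in 18-month triceps 0%. In these fits 0 of the 79 top-ranked genes were called. With a positive slope, DESeq2 called 8 of them in 24-month gastrocnemius and 1 in 8-month triceps, edgeR with library totals called 10 in 24-month gastrocnemius, and voom called 0 in either group. At an unadjusted p under 0.05, whatever the direction of the slope, 16 of the 79 were found in 24-month gastrocnemius, against 13.5% of all genes. There were 4 in 18-month triceps, against 2.21%, and 6 in 8-month triceps, against 6.8%. In 8-month triceps the median slope of the 79 was -0.039, with 24 above 0 against 45.7% of all genes. In 18-month triceps it was 0.00849, with 41 above 0 against 50.4%. DESeq2 and limma's voom also called 0 genes in 18-month triceps. One of the 73 bottom-ranked genes, ENSRNOG00000007539, was called in 8-month triceps, with a positive slope.

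The genes called in 24-month gastrocnemius included 2 from the lists, Chrna1 with a slope of 1.61 log2 units per log2 unit of Cdkn1a (SE 0.200, adjusted p = 0.0141) and Cdkn2b with 1.07 (SE 0.154, adjusted p = 0.0238). Over the 9 triceps libraries the rho of these genes was 0.3 and 0.767, and the difference between the muscles was not tested. The number of calls depended on a single library. Rat 47 stood at 180 CPM of Cdkn1a in gastrocnemius, while the others stood between 498 and 798, and without it 1 gene was called in place of 23. The median slope of the 79 top-ranked genes was 0.0765, with 56 above 0, and without rat 47 it was 0.341, with 66 above 0, beside medians of 0.017 and 0.0443 over all genes. In 8-month triceps 0 genes were called without rat 9.

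As ranks, the top-ranked genes showed a median rho with Cdkn1a of 0.317 in 24-month gastrocnemius, where 58 of 79 were above 0 against 51.3% of all genes. It was 0.273 in 18-month and 0.133 in 8-month gastrocnemius, but -0.0121 in 18-month and -0.176 in 8-month triceps. For the bottom-ranked genes the medians were -0.133, -0.0667 and -0.0848 in gastrocnemius at these ages and -0.0182 and 0.127 in triceps. In 18-month triceps 2 of the 78 top-ranked genes that could be ranked there reached 0.8. Of the named ones Nup93 had a rho of 0.867, Tubb6 of 0.636 and Runx1 of 0.539. Numbers of genes at 0.8 or above also differed between groups, from 18 in 18-month triceps (10 libraries) to 315 in 24-month gastrocnemius (9 libraries). A limit of 0.8 is easier to reach with fewer libraries, so numbers from 9 and from 10 libraries are not on a like footing. With 9 libraries each, 24-month gastrocnemius had 315 genes at 0.8 or above and 170 at -0.8 or below, of 12134 ranked. The 24-month triceps had 79 and 73, of 11426 ranked, and this difference was not tested.

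**Figure D4:**
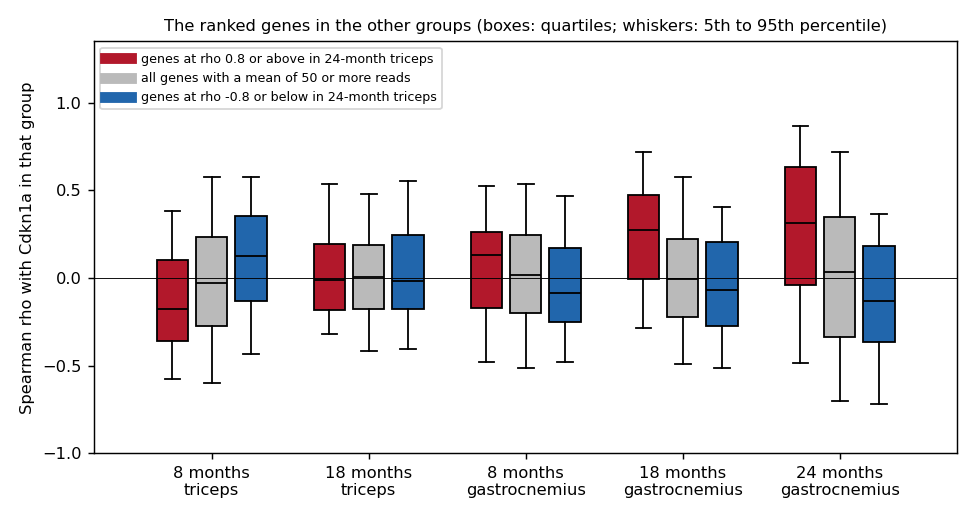
Spearman rho with Cdkn1a (vertical axis) in each of the 5 groups that the ranking did not use, for the 79 top-ranked, the 73 bottom-ranked and all ranked genes, as boxes of the quartiles with whiskers from the 5th to the 95th percentile. The top-ranked genes have medians of 0.317 in 24-month gastrocnemius and of -0.176 in 8-month triceps, and their boxes overlap those of all genes.

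The level of Cdkn1a in triceps showed no detectable relation with that in gastrocnemius of the same rat. Gastrocnemius stood at 748 CPM in rat 41, 652 in rat 42, 507 in rat 43, 498 in rat 44, 516 in rat 45, 661 in rat 46, 180 in rat 47, 798 in rat 49 and 628 in rat 50. Rats 43 and 45, lowest in triceps, were in the lower part of the gastrocnemius range, but only rats 46 and 50 were above rat 47, lowest there, in triceps. Spearman's rho was -0.05 (exact permutation p = 0.912, adjusted p = 0.982) and Pearson's r -0.0949 (exact permutation p = 0.811, adjusted p = 0.898) over 9 rats. Without rats 47 and 49, r was 0.463 and rho 0.25 (exact permutation p = 0.287 and 0.595). Of all gastrocnemius genes, 0% had a slope on the triceps level of Cdkn1a that passed the edgeR test, 1448 did so at an unadjusted p under 0.05 (9.69%), among them 12 of the 79, and DESeq2 called 2.

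**Figure D5:**
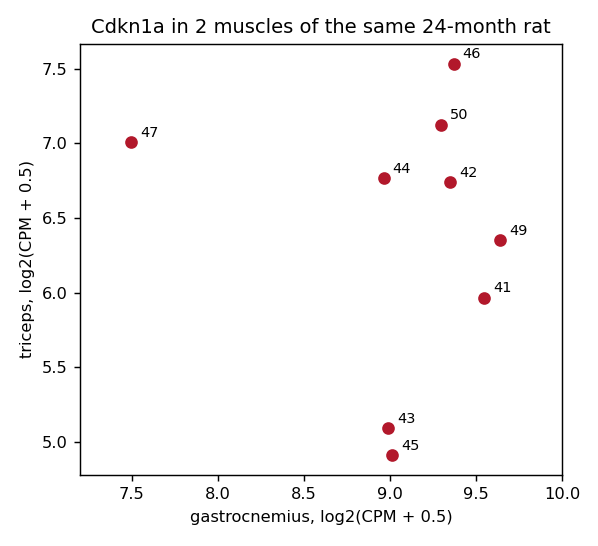
Cdkn1a as log2(CPM + 0.5) in gastrocnemius (horizontal axis) and triceps (vertical axis) of the same 9 rats of 24 months, with a numbered point for each rat. No common direction is visible, with a Spearman rho of -0.05, and rat 47 lies alone at the left.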

How the data were processed

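Gastrocnemius and triceps brachii RNA of 29 rats was sequenced in 58 libraries. The authors made TruSeq libraries, which do not mark strand, from column-purified RNA, aligned the reads to Rnor_6.0 with STAR 2.3.0e, with CASAVA 1.8 named in the submitters' processing notes, and counted them per gene with HTSeq. The deposited counts are whole reads per Ensembl gene. The strand option and the Ensembl release are not given in the sources used here, so overlapping genes are uncertain.

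The 14947 genes that reached 20 reads in any library were tested with edgeR 4.0.16 in R 4.3.3, after TMM scaling, with 1 mean for each of the 6 groups of all 58 libraries. P-values were adjusted by Benjamini and Hochberg and called under 0.05. Slopes on Cdkn1a were fitted within a group. Ranks used log2(CPM + 0.5), and relations over rats used exact two-sided permutation tests over pairings (scipy 1.17.1). Alternatives used limma 3.58.1 and DESeq2 1.42.0, other scalings and filters, and each rat left out in turn. Read totals of the 9 libraries, from 13707850 to 41077568 reads, gave a counting error below the spread between rats, but had a rho of 0.7 with Cdkn1a, so the ranking was repeated with the read total removed. The scripts were tested on simulated counts.

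The members, lists and tests were chosen with earlier results of these data known. Named were the 12 genes with a symbol of highest and the 8 of lowest rho, 3 and 2 without a symbol, all ranked p53 and junction genes and, of the other lists, those with the largest absolute rho. Symbols came from the study's own list of 2163 genes changed with age in these muscles, read by identifier. Where 16 genes shared a symbol the one with more reads was kept. The list was used for names only. Samples of different ages share label numbers that do not pair animals. The muscles of a rat are paired by the animal: after removal of group means their correlation at 24 months had a mean of 0.28 (-0.103 to 0.53, over 0.1 in 8 of 9 rats), against -0.0346 between different rats.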

Additional observations from a re-analysis of the deposited data

Results flagged for a closer look

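Of 109 groups of values, 16 had a library that stood farther from its neighbours than Dixon's limit allows at 95%. Chance alone gives this in about 1 in 20 groups of independent, normally distributed values. Most groups here hold CPM that was not logged, and they share libraries and in part genes. The 16 of 109 are therefore not set against that rate. In 24-month triceps, 12 of the 16 were in rat 46, the library with the highest Cdkn1a. Its levels were 292.2 CPM for Slain2 (next 206), 115.6 for Creld1 (next 86.8), 10.31 for Cables2 (next 7.53), 31.72 for Runx1 (next 16.3), 126.6 for Tubb6 (next 58.2) and 51.05 for Eda2r (next 23.1). Ptpn3 was lowest there at 135.5 CPM (next 221.6). Glul, glutamine synthetase, stood at 2412 CPM (next 1444) and Mars, methionyl-tRNA synthetase, at 114.8 (next 85.8), and the summed lists stood at 700.1 CPM for p53-responsive genes (next 549.6), 2652 for glucocorticoid-responsive genes (next 1661) and 1519 for the amino acid stress response (next 1170). Glul alone gave 2412 of the 2652 CPM of the glucocorticoid-responsive list, so that sum mostly repeats the value of Glul. Mars and Eda2r are likewise members of the other summed lists. Several of these genes were chosen for their rank with Cdkn1a, which was highest in the same library, so they are not separate observations.

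Of 19 named genes of the p53, inhibitor, junction and denervation lists, rat 46 was above all other 24-month triceps libraries in 10 and below them in 0. Among all genes with a mean of 50 or more reads it was above the others in 19.2% and below in 12.2%. The counts for rat 46 are a description only, since some of the 19 were named for their rank with Cdkn1a over these libraries. In 8-month triceps, rat 9 stood at 102.7 CPM of Cdkn1a (next 34.8) and was above the other libraries in 10 of the 19 genes and below in 1, against 10.9% and 12.6% of all genes with a mean of 50 or more reads. Eda2r was at 32.5 CPM there (others up to 12.9), Ankrd1 at 138 (others up to 36.1) and Cdkn2b at 9.13 (others up to 4.50). In 24-month gastrocnemius, rat 47 had the lowest Cdkn1a at 180.2 CPM (next 498.1) and was below the others in 12 of the 19 genes and above in 1, against 15.3% and 15.3% of all genes. Chrna1 was at 22.9 CPM there, against 104 to 284 in the others. In 24-month triceps Musk was highest in rat 50 at 8.601 CPM (next 3.62), and Adgre1, a macrophage receptor, was highest in rat 45 at 25.4 CPM (next 15.9).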

How the results depend on the processing

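The rise of Cdkn1a in triceps passed the test under all 18 alternatives (1.38 to 1.67 on the log2 scale). The count of top-ranked genes, 79, was 42 with the read total as covariate, an alternative chosen after seeing the data, and 56 to 187 with a rat left out (125 without rat 44, 141 without rat 50, 171 without rat 47, 179 without rat 49, 187 without rat 42). That of bottom-ranked genes, 73, was 45 with Pearson r, 43 at a mean of 200 or more reads and 76 to 161 with a rat left out (161 without rat 43). Fewer libraries give coarser ranks. The 406 genes changed in triceps became 642 with DESeq2, 192 with voom and an estimated within-rat correlation, 862 with library totals, 251 without a filter, 130 at a fold over 2, and 107 (without rat 42) to 684 (without rat 47). In gastrocnemius 6601 became 1349 at a fold over 2, and 6145 to 6865 with a rat left out. The 22 top-ranked genes higher there became 53 with library totals, 8 at a fold over 2, and 20 to 24. Library totals moved the median of all genes to 0.36 in gastrocnemius and 0.15 in triceps, and the share of higher calls from 51.1% to 88.4% and from 76.6% to 93.2%. In triceps that share was 58.9% with that voom fit, 63.7% with only the muscle's libraries and 61.2% with the block. The 23 slopes in 24-month gastrocnemius became 410 with DESeq2, 13 with voom, 491 with library totals, and 1 (without rat 47) to 40. The 3 in 8-month triceps became 12, 6, 1 at a mean of 50 reads, and 0 to 3. The 0 gastrocnemius genes on triceps Cdkn1a became 2 with DESeq2. The rho between the muscles, -0.05, was 0.05 with library totals, and -0.238 to 0.119 with a rat left out. The cause of these shifts was not tested.

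With the shared label number as replicate block, 701 genes changed in triceps, 6951 in gastrocnemius, and Cdkn1a by 1.66. The numbers do not pair the rats: deviations of same-numbered 8- and 24-month samples correlated between -0.152 and 0.177 in gastrocnemius and between -0.295 and 0.207 in triceps.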
